A study of Mus musculus with 4 samples.

Results

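The genes described here code for the gamma-delta T cell receptor: Trdc, the constant region of the delta chain, Tcrg-C2 and Tcrg-C4, 2 constant regions of the gamma chain, and Tcrg-V1, a gamma variable segment. They were taken as the 4 rows with these symbols among 32344 listed features, and their unique molecular identifiers (UMIs, counted transcripts) were read in T, NK and ILC1-like cells. These cells numbered 16154 of 32878 barcodes with at least 500 UMIs. The study profiled CD45+ cells sorted from mouse liver after 1 week of tamoxifen, by hybridising fixed cells to a transcriptome-wide probe set. The 4 libraries were GS(+/D)Hep (glutamine synthetase, 1 library), URI(+/D)Hep (the chaperone URI, 1 library) and WT (2 libraries). The (+/D)Hep of the labels is read here as deletion of 1 allele in hepatocytes, and all 4 libraries had the same tamoxifen treatment. Each library pooled 5 mice, and the labels give neither their age nor what drives the deletion.

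In a gamma-delta T cell the receptor is a pair of a delta and a gamma chain, and in an alpha-beta T cell a pair of an alpha and a beta chain. The delta locus lies inside the alpha locus, so a chromosome that rearranges alpha segments loses Trdc. The mouse gamma locus is a row of small clusters, each with its own constant gene, and Tcrg-V1 sits in the cluster of Tcrg-C4. The liver is a site where gamma-delta T cells are common, among them interferon-producing cells and cells that make interleukin 17. A probe counts RNA, and transcripts of a locus that encodes no finished chain are counted like any other.

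On GRCm38 (GENCODE M21), Trdc (ENSMUSG00000104876) spans chr14:54142851-54148868 on the plus strand. Tcrg-V1 (ENSMUSG00000076755, chr13:19339989-19340454, plus strand) lies just before Tcrg-C4 (ENSMUSG00000076757, chr13:19344558-19352756, plus strand), while Tcrg-C2 (ENSMUSG00000076752, chr13:19304649-19307551) is read from the minus strand. The first constant exons are 330 bases each, and how far a probe can tell them apart bears on every gamma count. That exon of Tcrg-C2 was identical to the one of Tcrg-C4 at 269 of 330 bases (81.52%), but to the one of Tcrg-C1, another gamma constant gene, at 321 of 330 (97.27%). Bases 121 to 240 of the exon are shown 5′ to 3′ on the coding strand, with capitals where a base differs from Tcrg-C2.
Tcrg-C2 (chr13:19307312-19307431): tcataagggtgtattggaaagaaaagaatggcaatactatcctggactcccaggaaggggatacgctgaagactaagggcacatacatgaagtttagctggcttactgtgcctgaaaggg
Tcrg-C1 (chr13:19214223-19214342): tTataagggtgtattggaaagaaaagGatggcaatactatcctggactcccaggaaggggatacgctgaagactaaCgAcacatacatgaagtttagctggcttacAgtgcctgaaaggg
Tcrg-C4 (chr13:19344678-19344797): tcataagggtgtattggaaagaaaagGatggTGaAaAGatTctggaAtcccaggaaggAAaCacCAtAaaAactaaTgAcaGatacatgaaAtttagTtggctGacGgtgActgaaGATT
In this window Tcrg-C1 differed from Tcrg-C2 at 5 bases and Tcrg-C4 differed from it at 27. Counts of Tcrg-C2 and Tcrg-C1 are therefore given as uncertain with respect to each other, since the positions of the probes are not given in the sources used here, and levels are not compared between genes.

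Cells were gated on raw UMIs. T cells had at least 2 Cd3e UMIs and no Ncr1 and were split by Cd4 and Cd8a into double-negative T (2764 cells), CD8 T (4491) and CD4 T (4856) cells. Double-negative here means no UMI of Cd4 or Cd8a, so cells in which either was missed can fall in this gate. Cd8b1, the CD8 beta chain gene, was found in 23.3% of its Trdc-negative cells. In its cells with 10 or more Trdc UMIs the share was 4.57% (means of the library percentages). Cells with at least 2 Cd3e UMIs and a UMI of Ncr1, an NK receptor gene, formed the Cd3e+Ncr1+ gate (870). NK cells (1940) and ILC1-like cells (245) had no Cd3e and at least 2 Ncr1 UMIs, and were separated by Eomes, the NK lineage factor, and by the ILC1 genes Cd200r1, Cxcr6 and Itga1. The libraries held 39451266 (GS), 51920505 (URI), 37783065 (WT replicate 1) and 24041049 (WT replicate 2) UMIs. WT replicate 2 stood apart: its median of 2659 UMIs per cell compared with 4448 (GS), 4973 (URI) and 3763 (WT replicate 1), and only 2109 of its 7453 cells fell in these gates. No whole barcode was shared between libraries.

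Trdc was highest in double-negative T cells. Their summed UMIs gave 836, 856, 1089 and 328 CPM of Trdc (its UMIs scaled to a fixed library total) in the GS, URI, WT replicate 1 and WT replicate 2 libraries, a mean of 777 ± 321 (SD, n = 4 libraries). WT replicate 2 was the low library. Trdc averaged 469 ± 142 CPM in Cd3e+Ncr1+ cells, 251 ± 48.9 in NK cells, 102 ± 17.04 in CD8 T cells, 51.9 ± 20.4 in ILC1-like cells and 39.8 ± 13.0 in CD4 T cells (SD, n = 4). In this order each gate overlapped the next except at 2 steps: every NK value of Trdc (188 to 292 CPM) was above every CD8 T value (85.9 to 124), and every CD8 T value was above every ILC1-like value (36.3 to 81.4). B cells and neutrophils, which should lack the gene, had 3.84 to 4.89 and 2.94 to 6.09 CPM.

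The gamma genes followed another order. Tcrg-C4 reached 347, 267, 431 and 107 CPM in double-negative T cells of the GS, URI, WT replicate 1 and WT replicate 2 libraries, again lowest in WT replicate 2. ILC1-like cells came next for Tcrg-C4, with 146, 231, 271 and 90.8 CPM in the same order of libraries, a range that overlapped that of the double-negative T cells. Tcrg-C4 averaged 151 ± 69.3 CPM in Cd3e+Ncr1+ cells, 50.2 in CD4 T cells, 33.2 in CD8 T cells and 3.82 ± 1.06 in NK cells, beside 2.05 ± 1.57 CPM in B cells (SD, n = 4). Tcrg-V1 had 67.8, 54.3, 68.0 and 30.8 CPM in double-negative T cells, and a mean of 26.9 ± 3.44 in Cd3e+Ncr1+ cells, 17.7 ± 9.32 in ILC1-like cells and 0.567 ± 0.449 in NK cells (SD, n = 4). Tcrg-C2 departed from both in ILC1-like cells. It had 151, 115, 195 and 43.2 CPM in double-negative T cells, but no UMI in the ILC1-like cells of the GS and WT replicate 2 libraries and 10.3 and 3.01 CPM in those of the URI and WT replicate 1 libraries.

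**Figure D1:**
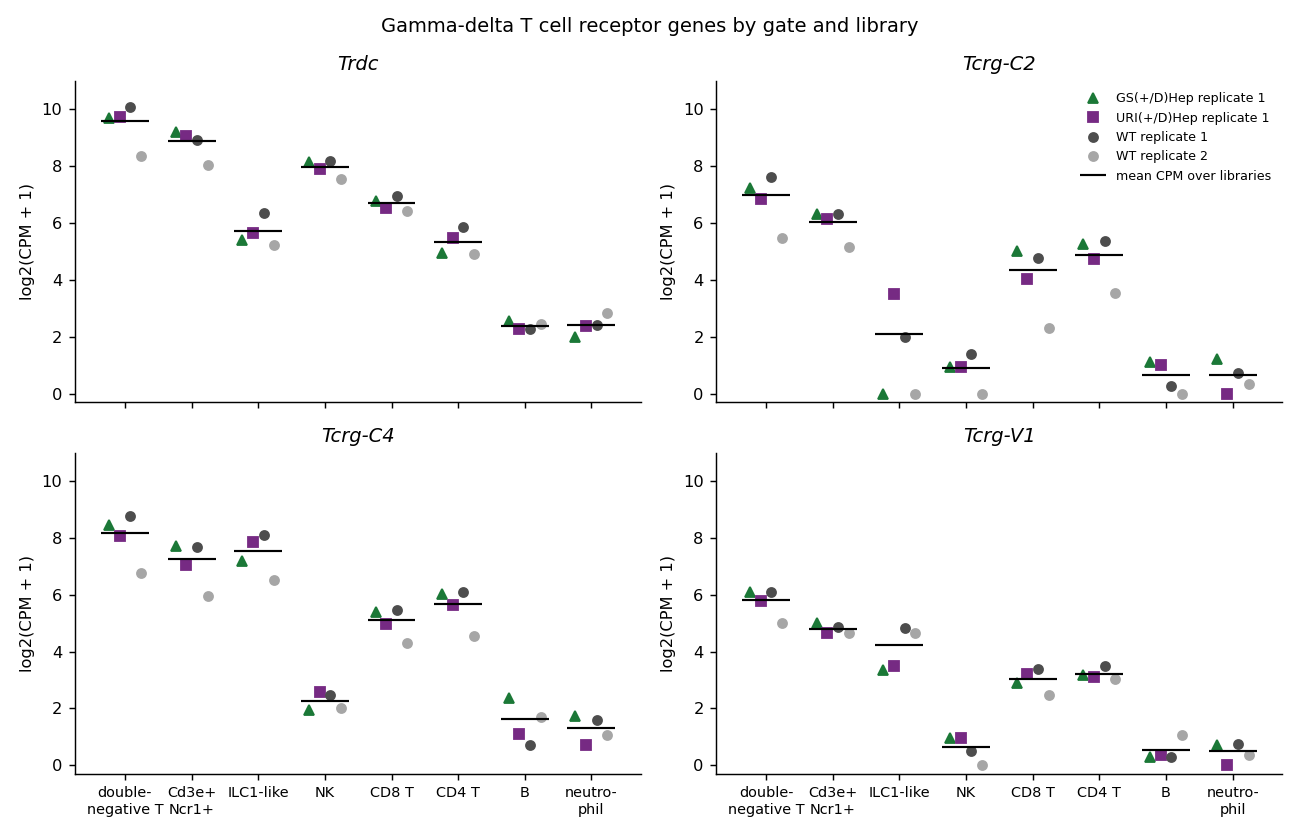
Levels of Trdc, Tcrg-C2, Tcrg-C4 and Tcrg-V1 in each gate (x axis), as log2(CPM + 1) of the UMIs summed per library (y axis); each marker is 1 library and the black line is the mean CPM of the 4. Trdc is high in NK cells (188 to 292 CPM), where the gamma genes lie near B cells and neutrophils, and Tcrg-C4 is high in ILC1-like cells (90.8 to 271 CPM).

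For each library and gate the UMIs were summed, and edgeR's quasi-likelihood test compared the gates with the library as a block. All 4 genes were higher in double-negative T cells than in CD4 T cells, in all 4 libraries, where 18.1% of the 10509 genes tested were called in either direction and 10.5% as higher in double-negative T cells. The log2 differences (± SE) were 4.30 ± 0.16 for Trdc (edgeR adjusted p 1.73e-16), 2.52 ± 0.10 for Tcrg-C4 (1.73e-16), 2.15 ± 0.12 for Tcrg-C2 (4.42e-13) and 2.80 ± 0.16 for Tcrg-V1 (5.74e-13). All 4 were also higher than in CD8 T cells (34.9% of genes called, 18.2% higher in double-negative T cells), by 2.91 ± 0.15 for Trdc, 3.13 ± 0.10 for Tcrg-C4, 2.68 ± 0.12 for Tcrg-C2 and 2.93 ± 0.16 for Tcrg-V1. The alpha constant gene Trac was lower in double-negative T cells, by −0.55 against CD4 T cells and −0.32 against CD8 T cells. All 4 members passed the filter on low counts in this fit.

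CD8 and CD4 T cells separated the delta gene from the gamma constants (30.5% of genes called). Trdc was higher in CD8 T cells, by 1.39 ± 0.16 log2 (edgeR adjusted p 1.88e-07, 4 of 4 libraries). Tcrg-C4 was lower in CD8 T cells, by −0.61 ± 0.11 (9.14e-05), as was Tcrg-C2, by −0.53 ± 0.13 (0.00281), each in 4 of 4 libraries. The Tcrg-C2 call was not made by DESeq2 (−0.62, adjusted p 0.0649). Tcrg-V1 did not pass (−0.13 ± 0.18, edgeR adjusted p 0.657).

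The innate gates were opposites. In NK cells against CD4 T cells (57.5% of genes called) Trdc was higher by 2.80 ± 0.17 log2 (edgeR adjusted p 6.36e-14), and the 3 gamma genes were lower, by −3.61 ± 0.23 for Tcrg-C4, −4.76 ± 0.34 for Tcrg-C2 and −3.45 ± 0.41 for Tcrg-V1, in 4 of 4 libraries each. In double-negative T cells against NK cells (49.4% called) the difference was 1.502 ± 0.14 for Trdc, but 6.13 ± 0.18 for Tcrg-C4, 6.92 ± 0.27 for Tcrg-C2 and 6.25 ± 0.31 for Tcrg-V1. In ILC1-like cells against NK cells (22.1% called) Trdc was lower by −2.37 ± 0.30 (9.20e-07), while Tcrg-C4 was higher by 5.52 ± 0.26 (1.08e-14) and Tcrg-V1 by 4.44 ± 0.59 (1.73e-06). Tcrg-C2 did not pass there (1.78 ± 1.05, edgeR adjusted p 0.254). Summed alpha-beta T markers were 1724 to 2864 CPM in ILC1-like cells, 608 to 949 in NK cells and 3452 to 5896 in double-negative T cells. Among these markers Trbc1 (mean 1186 CPM), Cd3g (605) and Trbc2 (378) were high in ILC1-like cells. Trac averaged 21.9 ± 10.0 CPM there, beside 23.3 in B cells and 1191 in double-negative T cells. Summed neutrophil markers ranged from 175 to 16157 CPM in ILC1-like and from 457 to 2768 CPM in NK cells. The part of either marker set in these results was not tested.

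Among single cells, after each cell was thinned to 1000 UMIs, 24.5% (GS, 95% exact interval 21.4 to 27.7), 26.3% (URI, 23.0 to 29.9), 30.1% (WT replicate 1, 26.6 to 33.7) and 18.0% (WT replicate 2, 14.8 to 21.5) of double-negative T cells carried Trdc. The share in NK cells was 21.4% (GS, 17.7 to 25.3), 18.0% (URI, 14.9 to 21.5), 22.5% (WT replicate 1, 19.3 to 26.0) and 16.8% (WT replicate 2, 12.6 to 21.8). With all UMIs the mean share was 28.9% of double-negative T cells, and NK cells had 52.2% (GS, 47.6 to 56.8), 52.5% (URI, 48.3 to 56.7), 50.3% (WT replicate 1, 46.3 to 54.3) and 40.0% (WT replicate 2, 34.2 to 46.1), a mean of 48.8%, so the NK share moved more with depth than the T cell share did. The thinned mean shares with Trdc were 22.0% in Cd3e+Ncr1+ cells, 4.86% in ILC1-like cells, 4.51% in CD8 T cells and 2.41% in CD4 T cells. B cells had 0.526% thinned and 1.40% unthinned (median 2342 to 4495.5 UMIs per cell), and neutrophils 0.354% and 1.72% (2726 to 4641 UMIs), against medians of 3443 to 5445 UMIs in double-negative T and 3235 to 5411 in NK cells. Intervals cover counting error only.

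Tcrg-C4 was found in 19.8% of thinned double-negative T cells on average (range over libraries 10.1% to 27.02%) and in 18.3% of ILC1-like cells (13.9% to 22.4%), but in 0.276% of NK cells, 0.199% of B cells and 0.122% of neutrophils. With all UMIs these shares were 39.7%, 39.8%, 1.12%, 0.590% and 0.619%. Tcrg-C2 was found in 10.9% of thinned double-negative T cells and 0.0930% of NK cells, beside 0.109% of B cells. Tcrg-V1 was found in 4.61% of thinned double-negative T cells and 0.0529% of NK cells, beside 0.061% of B cells. Tcrg-C2 and Tcrg-V1 in NK cells are thus read as background.

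The number of Trdc UMIs per cell set the gates apart more than the share did. Trdc-positive double-negative T cells had a median of 11.5 (GS), 13 (URI), 13 (WT replicate 1) and 5 (WT replicate 2) Trdc UMIs, with up to 61, 65, 50 and 21 in a cell. At least 10 Trdc UMIs were found in 131, 137, 143 and 15 of these cells. Trdc-positive NK cells had medians of 2, 2, 2 and 1, maxima of 14, 11, 9 and 6, and only 1, 3, 0 and 0 cells with at least 10. CD8 T cells held both kinds, with medians of 2, 2, 5.5 and 2.5 and 29, 28, 48 and 6 cells with at least 10 Trdc UMIs. In each library the highest NK cell was below the highest double-negative T cell.

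**Figure D2:**
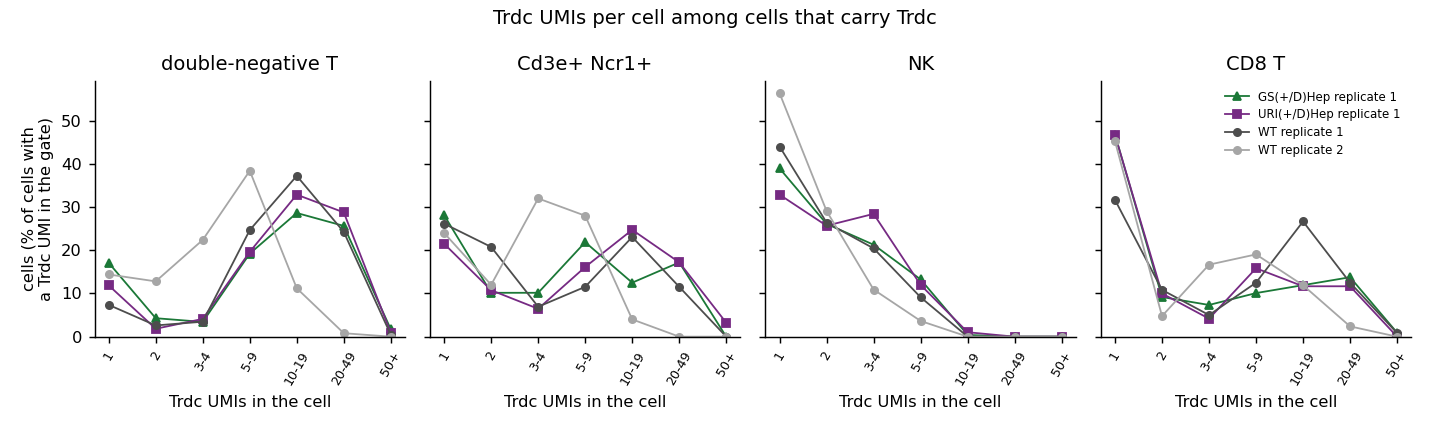
Trdc UMIs in a cell (x axis, binned) against the percentage of the gate's Trdc-positive cells (y axis), 1 line per library, for double-negative T, Cd3e+Ncr1+, NK and CD8 T cells. The bins (1, 2, 3 to 4, 5 to 9, 10 to 19, 20 to 49, 50 or more) widen to the right, so the fullest bin need not hold the most frequent count. NK cells crowd at 1 and 2 UMIs. The fullest bin of double-negative T cells is 10 to 19 UMIs in 3 libraries and 5 to 9 in WT replicate 2. In CD8 T cells the fullest bin is 1 UMI, with further cells at 10 or more.

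Delta and gamma transcripts met in the same cell mostly in double-negative T and Cd3e+Ncr1+ cells. With all UMIs, 23.9% of double-negative T cells (15.4% to 29.0% over libraries) carried Trdc and at least 1 of the 3 gamma genes, 5.02% Trdc alone, 23.5% a gamma gene alone and 47.6% neither. Of Trdc-positive double-negative T cells, 82.5% (GS), 66.4% (WT replicate 2, the lowest) and up to 89.0% carried a gamma gene, a mean of 81.6% and of 57.5% after thinning to 1000 UMIs. In Cd3e+Ncr1+ cells this mean was 59.2%, in ILC1-like cells 44.0%, in CD8 T cells 40.4%, in CD4 T cells 25.9% and in NK cells 1.16%. Pooled over libraries, 13 of 969 Trdc-positive NK cells carried a gamma gene. At least 1 of the 3 gamma genes, without Trdc, was found in 37.0% of ILC1-like cells (26.8% to 48.3%) and in 0.975% of NK cells.

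**Figure D3:**
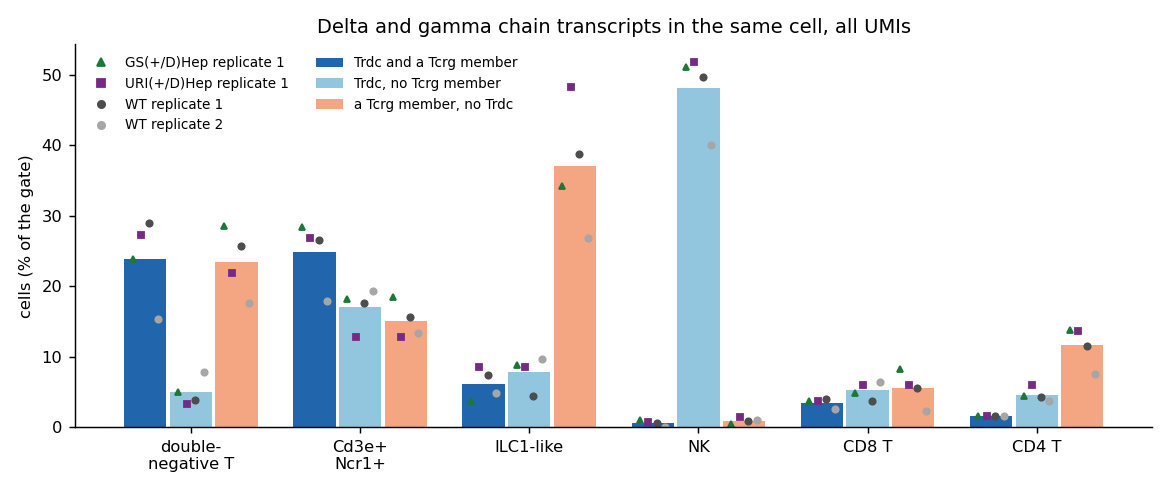
Percentage of each gate's cells (y axis) with Trdc and a gamma gene, with Trdc alone or with a gamma gene alone, from all UMIs; bars are means of 4 libraries and markers the libraries. NK cells carry Trdc without a gamma gene (48.2%), ILC1-like cells a gamma gene without Trdc (37.0%), and double-negative T cells both (23.9%).

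Within double-negative T cells each gamma gene was more often found beside Trdc than without it, in 4 of 4 libraries. Tcrg-C4 was present in 71.5% of Trdc-positive and 26.4% of Trdc-negative cells with all UMIs, and in 42.7% and 11.7% after thinning. Tcrg-C2 was present in 48.4% and 18.7%, and Tcrg-V1 in 39.6% and 7.84%, with all UMIs. Cells with Tcrg-V1 carried Trdc most often (67.2%, against 20.8% of cells without Tcrg-V1), ahead of cells with Tcrg-C4 (52.8% against 12.8%) and with Tcrg-C2 (51.1% against 19.9%). In NK cells Tcrg-C4 was present in 0.615% of Trdc-positive and 1.56% of Trdc-negative cells with all UMIs, and in 0.674% and 0.162% after thinning.

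Cells with 1 to 2 Trdc UMIs were close to Trdc-negative cells in Tcrg-C4 and Tcrg-C2, and those with 3 or more were not. All UMIs were used without thinning, so the classes can also differ in depth, and its part was not tested. The UMI classes were chosen after the values were seen. Percentages are means of the 4 library percentages, and cell numbers are totals over the libraries. In double-negative T cells Tcrg-C4 was found in 26.4% ± 8.06 of cells with no Trdc (1955 cells) and 26.5% ± 5.46 with 1 to 2 UMIs (137 cells). It was found in 76.0% ± 11.3 with 3 to 9 (246 cells) and 81.0% ± 18.6 with 10 or more (426 cells) (SD, n = 4 libraries). In that last class the libraries ranged from 53.3% to 93.7%, and WT replicate 2 had only 15 cells. Over the same classes Tcrg-C2 was found in 18.7%, 17.9%, 48.2% and 58.1%, and Tcrg-V1 in 7.84%, 11.8%, 39.6% and 52.8%. Trac ran the other way, at 89.5%, 67.8%, 31.6% and 34.9% of cells, whereas the beta constant gene Trbc2 was found in 86.9%, 76.0%, 80.4% and 89.2%. CD8 T cells showed the same step: Tcrg-C4 was found in 4.31% ± 1.60 of cells with no Trdc (4100 cells) and 6.30% ± 2.88 with 1 to 2 UMIs (201 cells). It was found in 50.5% ± 12.4 with 3 to 9 (79 cells) and 87.3% ± 4.51 with 10 or more (111 cells, 6 of them in WT replicate 2). Trac was still found in 58.4% ± 18.9 of those last CD8 T cells (33.3% to 77.1% over libraries). The 4 NK cells with 10 or more Trdc UMIs carried none of the 3 gamma genes.

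**Figure D4:**
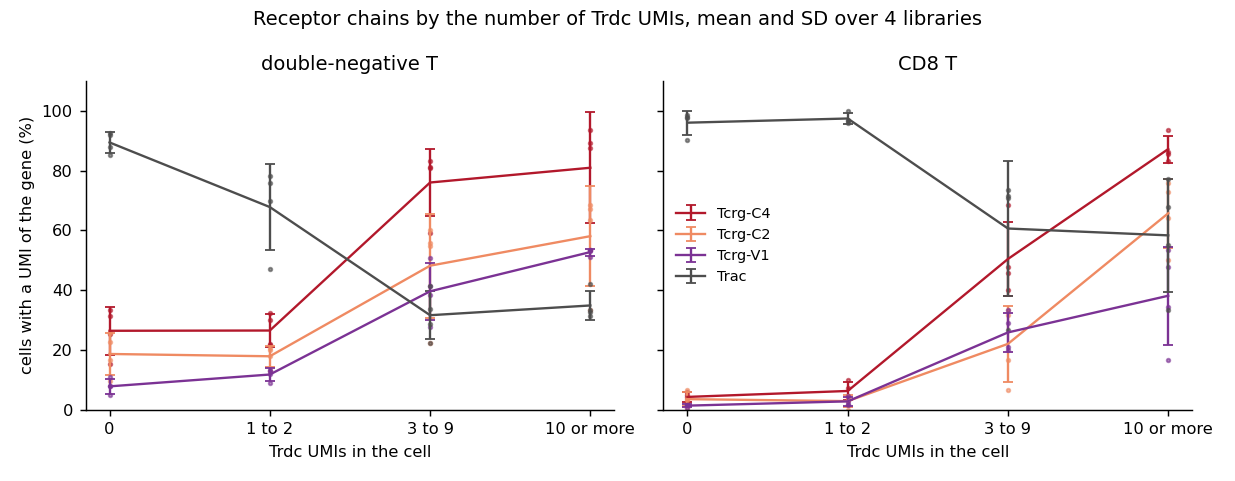
Percentage of cells with a UMI of Tcrg-C4, Tcrg-C2, Tcrg-V1 or Trac (y axis) by the cell's number of Trdc UMIs (x axis), mean and SD over 4 libraries with each library as a point, for double-negative T and CD8 T cells. The gamma genes step up between 1 to 2 and 3 to 9 Trdc UMIs (Tcrg-C4 26.5% and 76.0% in double-negative T cells), and Trac steps down.

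Among Trdc-positive double-negative T cells every combination of the 3 gamma genes was found in the GS, URI and WT replicate 2 libraries. WT replicate 1 lacked only cells with Tcrg-V1 and neither constant gene. All 3 together were found in 25.2% of 234 cells (GS), 28.8% of 219 (URI), 32.5% of 231 (WT replicate 1) and 7.2% of 125 (WT replicate 2). Tcrg-C2 with Tcrg-C4 and no Tcrg-V1 made up 18.4%, 19.6%, 23.4% and 6.4%, and Tcrg-C4 alone 13.7%, 16.9%, 16.9% and 26.4%. Tcrg-C4 with Tcrg-V1 made up 15.8%, 12.8%, 10.8% and 11.2%. WT replicate 2, the shallowest library, had the most cells with none of the 3, at 33.6% against 17.5%, 10.96% and 11.7% in the GS, URI and WT replicate 1 libraries.

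Tcrg-V1 went with the constant gene of its own cluster. Tcrg-C4 was found in 93.2% of Tcrg-V1-positive and 57.3% of Tcrg-V1-negative cells in GS (95% exact intervals 86.5 to 97.2 and 48.3 to 65.9), in 93.8% and 65.6% in URI (87.0 to 97.7 and 56.4 to 73.9), in 97.1% and 72.7% in WT replicate 1 (91.7 to 99.4 and 64.1 to 80.2), and in 71.9% and 44.1% in WT replicate 2 (53.3 to 86.3 and 33.8 to 54.8). Over all libraries 310 of 335 Tcrg-V1-positive and 289 of 474 Tcrg-V1-negative cells carried Tcrg-C4. In these pooled cells the contrast was smaller for Tcrg-C2 (65.1% and 42.0%) and for Tcrg-C1 (51.6% and 38.2%). In WT replicate 1 it was not smaller for Tcrg-C2, found in 75.7% of Tcrg-V1-positive and 48.4% of Tcrg-V1-negative cells. Tcrg-V4, a segment of the Tcrg-C1 cluster, went with Tcrg-C1, found in 101 of 146 cells with Tcrg-V4 (69.2%) and in 38.2% of those without. Tcrg-C4 was also more frequent beside Tcrg-V4, in 127 of the 146 (87.0%) against 71.2% of cells without it. Tcrg-C2 was found in 61.6% and 49.3%. All these shares are from unthinned cells.

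The same pairing was tested on sums per library. In Trdc-positive double-negative T cells, Tcrg-C4 was at 900, 715, 998 and 408 CPM in cells with Tcrg-V1, against 429, 379, 648 and 196 CPM in cells without it (GS, URI, WT replicate 1, WT replicate 2). It was higher with Tcrg-V1 in every library, by 0.88 ± 0.10 log2 (edgeR adjusted p 3.59e-06), where 1.29% of 8476 genes were called. Tcrg-C2 was at 271, 235, 344 and 138 CPM with Tcrg-V1 against 223, 184, 313 and 59.8 without it, and did not pass (0.31 ± 0.12, edgeR adjusted p 0.383). Tcrg-C1 did not pass either (−0.15 ± 0.13, 0.843), nor did Trdc (0.22 ± 0.08, 0.246). Trac fell to 321, 156, 230 and 146 CPM in cells with Tcrg-V1, against 503, 364, 390 and 211 CPM in cells without it (−0.84 ± 0.12, edgeR adjusted p 1.28e-04).

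Cells with Tcrg-V1 had less of the interleukin 17 programme. Of 17 tested genes of the type 17 gamma-delta list, 12 fell and none rose, with a median log2 difference of −1.38 beside −0.005 over all 8476 genes tested. Of all these genes 0.661% were called lower and 0.625% higher. The kinase gene Blk fell by −1.65 ± 0.18 (edgeR adjusted p 2.26e-06), the chemokine receptor gene Ccr6 by −1.68 ± 0.27 and the lineage factor gene Sox13 by −1.38 ± 0.23. Il17a, the cytokine itself, had 1.57, 16.8, 13.3 and 0 CPM with Tcrg-V1 against 25.7, 39.2, 90.6 and 134 without it (−2.52 ± 0.38, edgeR adjusted p 0.000360). In the type 1 and cytotoxic list of 19 genes, Cd160, a receptor of cytotoxic lymphocytes, rose (0.67 ± 0.10), as did the adaptor Tyrobp (0.59 ± 0.14, higher in 3 of 4 libraries), and Gzma fell (−1.52 ± 0.22). No tested member of the NK receptor list (15 genes) or of the gamma-delta lineage factor list passed. The other largest falls were Adam12 (−3.46), Kcnk1 (−2.47) and Nhsl2 (−2.42).

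The largest rises beside Tcrg-V1 were Cd300lf (2.75), Ptgs2 (2.61), Il1f9 (2.45), Ccnb2 (2.16), Mcemp1 (2.14) and Slfn4 (2.14), and several of these are expressed by myeloid cells. Summed neutrophil markers were 846 to 4752 CPM in cells with Tcrg-V1 and 512 to 2777 CPM in cells without it, higher with Tcrg-V1 in the GS, URI and WT replicate 2 libraries, all 4 markers being detected in each sum. Their part in the result was not tested. With cells holding a UMI of Cd79a, Csf3r, Csf1r or Jchain left out, an alternative chosen after seeing the data, 5 of these 6 genes were no longer tested and Ccnb2 did not pass, while the type 17 list had 13 falls and no rise and Tcrg-C4 rose by 0.91. The count of genes called was 109, and 68 without WT replicate 1 and 70 without the URI library. Type 17 falls numbered 7 without WT replicate 1, 9 without the GS library and 12 without either of the others.

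Trdc-positive double-negative T cells were next set against Trdc-negative ones, of which 20.5% to 29.0% over libraries carried Cd8b1. Tcrg-C4 was at 675, 546, 826 and 253 CPM with Trdc, against 201, 125, 226 and 60.7 CPM without it (GS, URI, WT replicate 1, WT replicate 2). The difference was 1.93 ± 0.08 log2 for Tcrg-C4 (edgeR adjusted p 1.505e-10), 1.40 ± 0.09 for Tcrg-C2 (5.76e-08), 2.52 ± 0.12 for Tcrg-V1 (1.15e-09) and 1.79 ± 0.12 for Tcrg-C1, each in 4 of 4 libraries, where 4.07% of 9625 genes were called, 2.42% as higher. Trac fell to 408, 261, 309 and 193 CPM in Trdc-positive cells, against 1866, 1572, 1980 and 1004 CPM in Trdc-negative cells (−2.46 ± 0.08, edgeR adjusted p 4.96e-12). Trbc2 fell by −0.71 ± 0.06 and Trbc1 did not pass (−0.15 ± 0.07).

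The type 17 list moved with Trdc in these cells. Of its 17 tested genes 15 rose and 1 fell, with a median of 1.79 beside −0.004 over all genes tested. Of all genes 2.42% were called higher and 1.65% lower. Sox13 was at 66.4, 64.4, 94.8 and 108 CPM in Trdc-positive cells, against 1.83, 0.38, 1.00 and 0 CPM in Trdc-negative cells (6.35 ± 0.32, edgeR adjusted p 2.56e-09). The scavenger receptor gene Cd163l1 was at 116, 104.6, 282 and 403 CPM against 27.5, 5.76, 4.51 and 9.14 (3.96 ± 0.35), and Il17a at 13.1, 28.0, 51.3 and 97.6 CPM against 0.73, 0, 0.50 and 8.49 (4.57 ± 0.43). Blk rose by 2.06 ± 0.18 and Ccr6 by 1.79 ± 0.19. The 1 fall was Zbtb16, the PLZF factor that NKT cells also use (−0.61 ± 0.06, edgeR adjusted p 2.43e-05). Among the gamma variable segments Tcrg-V7 rose by 4.40 ± 0.58 and Tcrg-V6 by 3.24 ± 0.34.

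Other groups moved less, beside 2.42% of all genes called higher and 1.65% called lower. Of 15 lineage factors 6 rose and 1 fell, Sox4 (2.48 ± 0.22) and Tcf7 (0.46 ± 0.08) among the rises. Of 19 genes of the type 1 and cytotoxic list 4 rose, such as Klrc1 (0.71 ± 0.12) and the chemokine Ccl5 (0.47 ± 0.09), and 2 fell, Il2rb and Tbx21. Of 19 NK receptors 2 rose and 3 fell, led by the Ly49 gene Klra6 (−1.67 ± 0.21). Of 14 TCR and CD3 complex genes 1 rose, Cd247 (0.55 ± 0.08), and 5 fell, including the costimulatory gene Cd28 (−0.46 ± 0.07) and Cd5 (−0.66 ± 0.09). The extracellular matrix gene Abi3bp rose by 4.41 ± 0.47. The largest falls were Ltf (−5.23), Chil3 (−4.14), Fn1 (−3.13) and Igha (−2.96), genes of neutrophils, monocytes and plasma cells. Summed macrophage and monocyte markers were 43.5 to 74.8 CPM in Trdc-positive and 149 to 333 in Trdc-negative cells, and neutrophil markers 602 to 3050 and 1801 to 4200. Without cells holding a UMI of Cd79a, Csf3r, Csf1r or Jchain, Chil3 (−0.45) and Igha (−0.45) did not pass, Ltf and Fn1 were no longer tested, the type 17 list again counted 15 rises and Sox13 rose by 6.68. The fit called 392 genes in all, and refits called 218 without the URI library, 231 without the GS library and 258 without WT replicate 2. Type 17 rises then numbered 13, 14 and 12, and 12 without WT replicate 1.

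In CD8 T cells the split by Trdc gave larger log2 differences for the gamma genes than in double-negative T cells, which was not tested between gates. Tcrg-C4 was at 255, 151, 274 and 107 CPM in Trdc-positive cells, against 20.8, 14.8, 18.6 and 7.31 CPM in Trdc-negative cells (GS, URI, WT replicate 1, WT replicate 2), a difference of 3.65 ± 0.12 (edgeR adjusted p 6.08e-13). Tcrg-C2 rose by 2.80 ± 0.17 (1.71e-08), Tcrg-V1 by 3.93 ± 0.30 (3.57e-07), Tcrg-C1 by 3.25 ± 0.26 and Tcrg-V7 by 5.44 ± 0.60, where 2.38% of 9485 genes were called, 1.86% as higher. Trac fell by −0.64 ± 0.06, a smaller difference than the −2.46 of double-negative T cells (this difference between gates was not tested). The Trdc-positive groups were unlike: 201 CD8 T cells had 1 to 2 Trdc UMIs, 79 had 3 to 9 and 111 had 10 or more. In double-negative T cells these classes held 137, 246 and 426 cells. Trac was found in 97.5% of the CD8 T and 67.8% of the double-negative T cells with 1 to 2 Trdc UMIs. The part of these cells in the Trac differences was not tested. Of 19 type 1 and cytotoxic genes 13 rose and none fell (median 0.69 beside −0.004 over all genes tested), among them the chemokine Xcl1 (1.58 ± 0.18), Ifng (0.98 ± 0.12), Cd160 (1.43 ± 0.14) and the NKG2D gene Klrk1 (1.05 ± 0.09). Of 17 NK receptors 11 rose and 1 fell (median 1.42), with rises of Klrb1c, the NK1.1 gene (1.93 ± 0.20), Cd244a (2.14 ± 0.24) and Klre1 (1.58 ± 0.14). Of 13 type 17 genes 8 rose, led by Zbtb16 (2.03 ± 0.27), Blk (1.67 ± 0.23) and Sox13 (5.09 ± 0.79). That last count was 4 without each of the URI, WT replicate 1 and WT replicate 2 libraries in turn and 8 without GS, while type 1 rises stayed between 11 and 14.

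Other rises in Trdc-positive CD8 T cells were Styk1 (2.84 ± 0.48) and the adaptor Clnk (2.80 ± 0.32). Gzmk, a granzyme of memory CD8 T cells, fell to 12.1, 3.02, 13.3 and 0 CPM in Trdc-positive cells, against 68.8, 36.3, 34.5 and 20.8 CPM in Trdc-negative cells (−2.37 ± 0.30). Falls of the histone gene Hist1h1b (−2.92), of Jchain (−2.41) and of Fn1 (−2.38) also passed. Lineage factors gave 3 rises (Nr4a1, Zbtb16, Ikzf2) and 1 fall (Lef1) among 15, and TCR and CD3 genes 5 falls among 14. Of all genes tested 1.86% were called higher and 0.527% lower. Summed B cell markers were 183 to 473 CPM in Trdc-positive and 220 to 313 in Trdc-negative CD8 T cells, and neutrophil markers 439 to 4215 and 1245 to 2056. The 226 calls became 132 without the GS library and 129 without WT replicate 1.

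**Figure D5:**
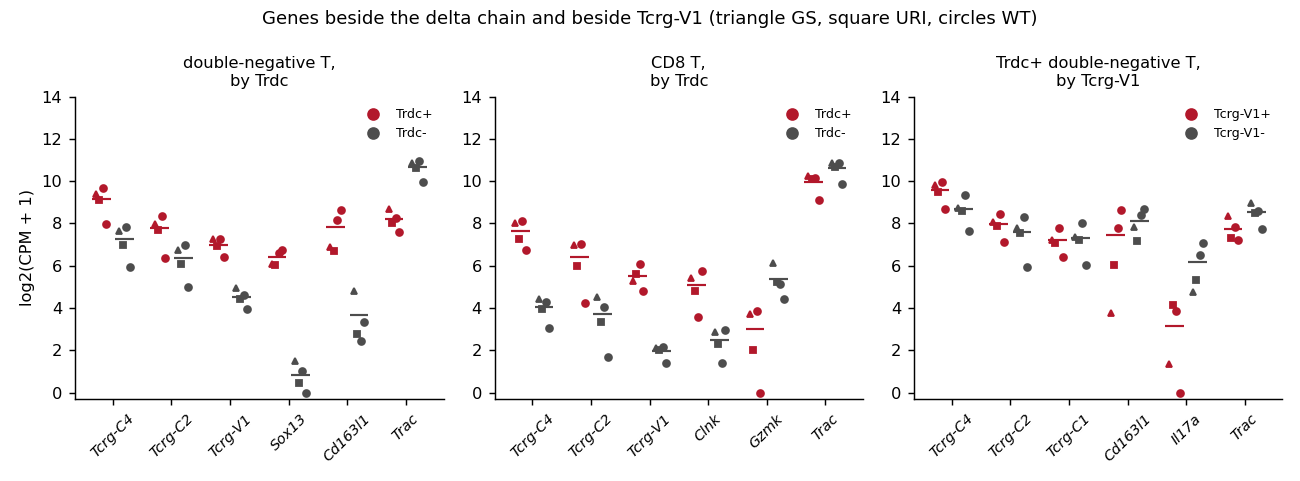
Levels (y axis, log2(CPM + 1) of UMIs summed per library) of named genes in cells with a UMI of the splitting gene (red) and without one (grey), by Trdc in double-negative T and CD8 T cells and by Tcrg-V1 in Trdc-positive double-negative T cells; triangles are GS, squares URI, circles the 2 WT libraries and lines the mean of the points. Tcrg-C4 is higher in the red group in all 3 panels, Trac lower, and Il17a lower beside Tcrg-V1 (0 to 16.8 CPM against 25.7 to 134).

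Where the gamma genes lay within CD8 T cells was looked at by 2 splits chosen after their values were seen. In cells with no UMI of Cd8b1, the CD8 beta chain, Trdc was found in 32.8% (GS, 39 of 119 cells), 23.2% (URI, 22 of 95), 35.4% (WT replicate 1, 23 of 65) and 48.3% (WT replicate 2, 14 of 29), against 6.08% to 8.69% of cells with Cd8b1. Tcrg-C4 was found in 48.7%, 40.0%, 60% (39 of 65 cells) and 20.7% of the cells without Cd8b1, against 3.42% to 6.08% with it. In cells with both Klra6, a Ly49 receptor gene, and Ikzf2, the Helios factor, Tcrg-C4 was found in 25 of 53 (GS), 20 of 40 (URI) and 21 of 44 (WT replicate 1) cells, while Trdc was found in 3, 2 and 4 of them. WT replicate 2 had 3 such cells. Gamma transcripts were thus found mostly without delta in these cells, of which 53 of 53, 39 of 40 and 44 of 44 carried Trac. In CD8 T cells with no UMI of Klra6 or Ikzf2, Tcrg-C4 was found in 3.79% (GS), 3.38% (URI) and 4.09% (WT replicate 1). Trdc was found in 7.76%, 8.66% and 5.94% of those, against 5.66%, 5.0% and 9.09% of cells with both genes.

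Few genes differed between NK cells with and without Trdc. Trdc-positive NK cells had medians of only 2, 2, 2 and 1 Trdc UMIs, and their share rose with depth. The Trdc-negative group can therefore include cells whose Trdc was missed, and the 2 groups can differ in depth. The part of this in the few differences was not tested. The 3 gamma genes were too low to be tested, and Tcrg-C4 had 2.51, 1.71, 2.33 and 0 CPM in Trdc-positive NK cells against 3.19, 8.64, 7.06 and 5.43 CPM in Trdc-negative ones. Trac did not pass (−0.80 ± 0.29, edgeR adjusted p 0.586). Of 9103 genes 0.384% were called, 0.176% as higher and 0.209% as lower. Tcf7, the TCF1 factor of less mature NK cells, was at 163, 133, 151 and 140 CPM in Trdc-positive cells, against 84.0, 102, 82.9 and 101 CPM in Trdc-negative cells, so the groups did not overlap (0.65 ± 0.11, edgeR adjusted p 0.00173). Thy1 was at 272, 213, 308 and 230 CPM against 155, 158, 245 and 114 (0.55 ± 0.09), and Ctla2a, a protease inhibitor gene, rose by 0.56 ± 0.08, as did Trub2 (0.97), Ighd (0.78) and the cell adhesion gene Emb (0.54). Of 20 NK receptors the Ly49 gene Klra4 rose (0.48 ± 0.08), and Klrg1, a receptor of mature NK cells, fell (−0.43 ± 0.09) with Klrb1b (−0.33 ± 0.06) and Klrc1 (−0.33 ± 0.07). No tested gene of the type 17 list (7) passed, and none of the 19 type 1 and cytotoxic genes other than Klrc1.

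The largest falls in Trdc-positive NK cells were Wfdc21 (−2.27), Rrm2 (−1.64), S100a8 (−1.32) and Ier3 (−1.29). Neutrophil markers summed to 400 to 2560 CPM in Trdc-positive and 510 to 2935 in Trdc-negative NK cells, and without cells holding a UMI of Cd79a, Csf3r, Csf1r or Jchain the values for S100a8 (−0.01) and Ighd (0.23) did not pass, while Tcf7 (0.63), Thy1 (0.57) and Ctla2a (0.53) still did. The fit called 35 genes, and refits called 22 without WT replicate 1, 23 without the URI library and 3 by DESeq2. Barcodes under 100 UMIs, a measure of free RNA, held 226, 166, 247 and 96.7 CPM of Trdc in the GS, URI, WT replicate 1 and WT replicate 2 libraries, while 1.40% of B cells and 1.72% of neutrophils carried Trdc. Its part in the low Trdc counts of NK cells was not tested.

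None of the 4 genes passed the test for either deletion. In double-negative T cells the log2 differences of GS(+/D)Hep from WT were 0.22 ± 0.52 for Trdc, 0.34 ± 0.49 for Tcrg-C4, 0.31 ± 0.46 for Tcrg-C2 and 0.42 ± 0.47 for Tcrg-V1, and those of URI(+/D)Hep from WT were 0.26 ± 0.52, −0.03 ± 0.49, −0.07 ± 0.47 and 0.11 ± 0.47, none of them called (edgeR adjusted p 1.00 for each). Of 10596 genes tested 0.0378% were called for GS, all higher, and 0.0755% for URI, with 0.0661% higher. In CD8 T, Cd3e+Ncr1+, NK and ILC1-like cells none of the members tested was called either, where for GS and URI 0.00898% and 0.00898% of genes were called in CD8 T cells, 0% and 0.0591% in Cd3e+Ncr1+ cells, 0.102% and 0% in NK cells, and 0.026% and 0.365% in ILC1-like cells (0.013% and 0.338% as higher). Only Trdc and Tcrg-C4 passed the filter on low counts in NK and ILC1-like cells. No gene was called for GS in Cd3e+Ncr1+ cells or for URI in NK cells, by edgeR or by DESeq2, with 85 and 53 genes at an unadjusted edgeR p under 0.05. In double-negative T cells the GS and URI levels of all 4 genes lay between those of the 2 WT libraries. These tests rest on 1 residual degree of freedom, the difference between the WT libraries, and GS and URI were assumed to vary alike. In summed cells, fewer Trdc-positive cells and less Trdc RNA per cell cannot be told apart.

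Over 32 sums (8 gates in 4 libraries, which share library and depth) the level of each gene was set beside 8939 others by Pearson's r of log2(CPM + 1), as a description. The genes most like Trdc were the Ly49 gene Klra6 (0.898), Ctla2a (0.893), Gab3 (0.890), Igf2r (0.884) and Bscl2 (0.879), all ahead of the gamma genes (0.693 to 0.701). Tcrg-C2 was most like Tcrg-C1 (0.945), Ptpn13 (0.908), Cd3d (0.906), Art2b (0.905) and Cd3e (0.897), the last a gate gene. Tcrg-C4 and Tcrg-V1 were most like each other (0.959), followed for Tcrg-C4 by Cxcr6 (0.955), a gate gene, Atp8a2 (0.942), the residency factor Zfp683 (0.941) and Podnl1 (0.938). Tcrg-V1 was next most like Cxcr6 (0.932), Bmp7 (0.916), Zfp683 (0.908) and Atp8a2 (0.907).

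Of 20 further rows of the gamma and delta loci, Tcrg-C1 averaged 77.6 ± 37.1 CPM in double-negative T cells, Tcrg-V4 21.9 ± 8.63, Tcrg-V6 11.8 ± 8.71, Tcrg-V5 8.57 ± 4.10 and Tcrg-V7 7.99 ± 4.16 (SD, n = 4). Tcrg-C3 was at 0.848 and Tcrg-V3 at 1.77 CPM. The delta variable and joining rows were listed at 0 in these cells, so variable segments of the delta chain were not measured here.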

How the data were processed

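Each library was a matrix of raw UMI counts that the authors deposited, made with Cell Ranger 8.0.0 on mm10 per the submitters' processing notes. Reads came from probe pairs hybridised to fixed cells, per the labels' protocols, so a count depends on the probes, whose positions are not given in the sources used here. Barcodes with at least 500 UMIs were kept (7846 GS, 9096 URI, 8483 and 7453 WT) and gated on raw UMIs. Doublets were kept in the values reported, and their removal with Scrublet (4.64% to 5.08% of cells per library), with limits of 250 genes and 10% mitochondrial UMIs, was an alternative. Shares per gate and pairings with Trdc were taken from cells thinned to 1000 UMIs and from all UMIs, as stated with each value. The Trdc UMI classes, gamma gene combinations, variable segment pairs and CD8 T cell subsets used all UMIs without thinning. B cells (at least 2 Cd79a and 1 Ms4a1 UMIs) and neutrophils (at least 2 Csf3r UMIs) served as background.

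UMIs were summed per library and gate (at least 20 cells) or per library and split (at least 10) and tested with edgeR 4.0.16 (quasi-likelihood, TMM, filterByExpr, Benjamini-Hochberg over all genes tested, threshold 0.05) in R 4.3.3, with the library as a block except between genotypes. In the gate and split fits the block joins cells of 1 pool of mice, so those samples are paired by origin. The SE of a log2 difference was derived from the test, as its absolute value divided by the square root of the quasi-likelihood F statistic. The tests were tried on simulated data. DESeq2 1.42.0 was an alternative. The genes named were the 4 members, the 6 largest rises and 4 largest falls per split among called genes of at least 20 CPM that moved the same way in every library, up to 4 genes per list by adjusted p, other rows of the gamma and delta loci, and the 5 most alike genes. Further list members were named after their values were seen. Members and gene lists were chosen with earlier results of these data known. Libraries are separate pools, with no replicate for GS and URI. 1 member of the type 17 list is not reported here by name.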

Additional observations from a re-analysis of the deposited data

How the results depend on the processing

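No paired analysis was possible between genotypes because the groups share only replicate number 1. Without the library block the calls between gates fell to 586 (1899 with it) for double-negative against CD4 T cells, 1329 (3671) against CD8 T cells, 3121 (5196) against NK cells, 993 (3208) for CD8 against CD4 T cells, 3848 (6043) for NK against CD4 T cells and 1430 (2319) for ILC1-like against NK cells. Without the block, 6 member results no longer passed: CD8 against CD4 T cells for Tcrg-C2 (−0.50, adjusted p 0.614) and Tcrg-C4 (−0.56, 0.470), the Trdc split for Tcrg-C2 in CD8 T (2.77, 0.0918) and double-negative T cells (1.41, 0.341) and for Tcrg-C4 in double-negative T cells (1.92, 0.0875), and Tcrg-C4 beside Tcrg-V1 (0.88, 0.845), all edgeR. By DESeq2 the Tcrg-C2 difference of CD8 from CD4 T cells did not pass (−0.62, adjusted p 0.0649). Genes called beside Trdc numbered 392 in double-negative T cells (178 by DESeq2, 614 with no filter on low counts, 837 with gates of 1 UMI, 35 without the block), 226 in CD8 T cells (385 with no filter, 10 without the block) and 35 in NK cells (3 by DESeq2, 74 with no filter, 12 with gates of 1 UMI, 1 without the block). Beside Tcrg-V1 there were 109 (29 by DESeq2, 205 with no filter, 6 without the block). Leaving out 1 library gave 218 to 281, 129 to 186, 22 to 38 and 68 to 121 calls in these 4 splits. Between genotypes in double-negative T cells, URI calls (8) were 5 with DESeq2 size factors, 4 by DESeq2, 5 with quality limits and doublets removed and 2 without cells holding a UMI of Cd79a, Csf3r, Csf1r or Jchain, which left 1 GS call (4 before).

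Leaving out 1 library moved Tcrg-C2 in ILC1-like against NK cells between −0.040 (without URI) and 2.35. Without WT replicate 2 the GS difference from WT turned negative for Trdc (−0.39), Tcrg-C4 (−0.32), Tcrg-C2 (−0.38) and Tcrg-V1 (−0.015), and the URI difference for Trdc (−0.35) and Tcrg-V1 (−0.33), while without WT replicate 1 the URI difference turned positive for Tcrg-C4 (1.28) and Tcrg-C2 (1.37), with no test in either case. Over such omissions the GS differences ran to 1.298 (Trdc), 1.65 (Tcrg-C4), 1.75 (Tcrg-C2) and 1.09 (Tcrg-V1), and the URI differences from −0.69 (Tcrg-C4) and −0.76 (Tcrg-C2) and up to 1.34 (Trdc) and 0.77 (Tcrg-V1). Thinning to 1000 UMIs gave 19.8% of double-negative T cells with Tcrg-C4 (31.5% at 2000, 39.7% with no thinning) and 19.7% of NK cells with Trdc (33.1% and 48.8%). The share of cells with Tcrg-C4 was 19.98 percentage points higher beside Tcrg-V1 (38.8 at 2000, 52.3 with no thinning) and 31.0 points higher beside Trdc (45.04 with no thinning) in double-negative T cells, but in NK cells it was 0.51 points higher beside Trdc at 1000 UMIs, −0.70 at 2000 and −0.95 with no thinning. The causes were not tested.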
